A study of Homo sapiens with 9 samples.

Results

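A set of 10 genes of the contractile machinery was followed over 3 groups of arrays: the actins ACTA2 and ACTC1, the actin-binding proteins TAGLN, CNN1 and CALD1, the tropomyosins TPM1 and TPM2, the myosin light chains MYL9 and MYL1, and the muscle creatine kinase CKM. All probes annotated with 1 of these symbols were taken, which gave 23 of the 47322 probes on the arrays and 10 of the 12245 genes measured. The genes themselves were selected on measured values, the log2 differences between recovery and control in these arrays. That contrast and the one of recovery with doxycycline are therefore described here without a test, and only doxycycline against control was tested. Of the 23 probes, 19 were detected (detection p under 0.05) on at least 3 arrays, and each of the 10 genes had at least 1 such probe.

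The cells were SaOS2, a human osteosarcoma line with osteoblast-like traits. Doxycycline was used to switch on an antisense RNA against APC, a tumour suppressor that holds together the complex through which beta-catenin is degraded. All groups grew in high-glucose DMEM with 10% serum, G418 at 100 µg/ml and hygromycin at 50 µg/ml. The 3 control arrays came from cells without doxycycline, the 3 doxycycline arrays from cells given 1 µg/ml for 3 days, and the 3 recovery arrays from cells given the same and then 3 days of medium without the drug. A control kept in culture for as long as the recovery cells was not analysed here, so time in culture and drug withdrawal cannot be told apart. Nothing in the sources used here says that the replicates were separate cultures, so p-values cover the spread among these arrays only, and it may be technical.

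Actin filaments and bundles of myosin slide past each other to make contractile force, in muscle and in the stress fibres of other adherent cells. Tropomyosin lies along the filament, calponin and caldesmon bind it and restrain the myosin motor, and in smooth muscle and non-muscle cells phosphorylation of the regulatory light chain switches the motor on. Many of these genes carry CArG boxes, bound by serum response factor (SRF) with its actin-sensing cofactors of the MRTF family. In bone-forming cells the same filaments anchor adhesions to the matrix, and in mice smooth muscle actin is known as a marker of osteoprogenitor cells.

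Between 20141 and 21317 probes were detected per array. Doxycycline replicate 2 stood apart from the other arrays, at -47.75 on the second principal component against -10.45 to 13.47 for the rest. APC was read by 1 probe near background, detected on 1 of 3 control arrays and on all others, and differed between doxycycline and control by 0.13 ± 0.16 on the log2 scale (limma adjusted p = 0.623). Markers of bone-forming cells were present: 8 of the 9 with a probe were detected on every array, with a summed intensity of 49182 to 53059 in control, 53626 to 69576 in doxycycline and 55554 to 61472 in recovery. Of 6 smooth muscle markers, MYH11, DES, LMOD1 and ACTG2 were detected on no array, and the other 2, MYOCD and SYNPO2, summed to 74.1 to 92.8 in control, 90.2 to 100.6 in doxycycline and 84.7 to 106.2 in recovery. Of 6 skeletal muscle markers, MYF5 and MYH3 were kept (69.1 to 80.2, 75.9 to 84.8 and 65.6 to 77.6 in the same order) and MYOD1, MYOG, DES and TNNT3 were not. All 5 cardiac markers were detected on no array. The endothelial, haematopoietic and epithelial lists each held 1 kept gene, VWF (125.5 to 162.1 in control, 196.1 to 267.6 in doxycycline and 132.7 to 178.1 in recovery), CD14 (63.9 to 68.6, 63.3 to 99.95 and 69.4 to 92.1) and EPCAM (1391 to 1525, 1518 to 2430 and 1301 to 1386). For VWF all doxycycline arrays were above all control arrays, while the CD14 and EPCAM ranges overlapped between these groups. In recovery all arrays were above all control arrays for CD14 and below all of them for EPCAM. The part of other cell types in the results was not tested, and in bulk RNA fewer cells that carry a transcript and less of it per cell cannot be told apart.

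Values below are normalized log2 intensities, where a difference of 1 is a change of 2-fold in intensity, and each gene is given at its brightest kept probe unless another is named. A level is compared only with the same probe's level on other arrays. Probe sequences were not analysed here, so whether a probe of 1 actin also reads a near-identical paralog was not tested.

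**Figure D1:**
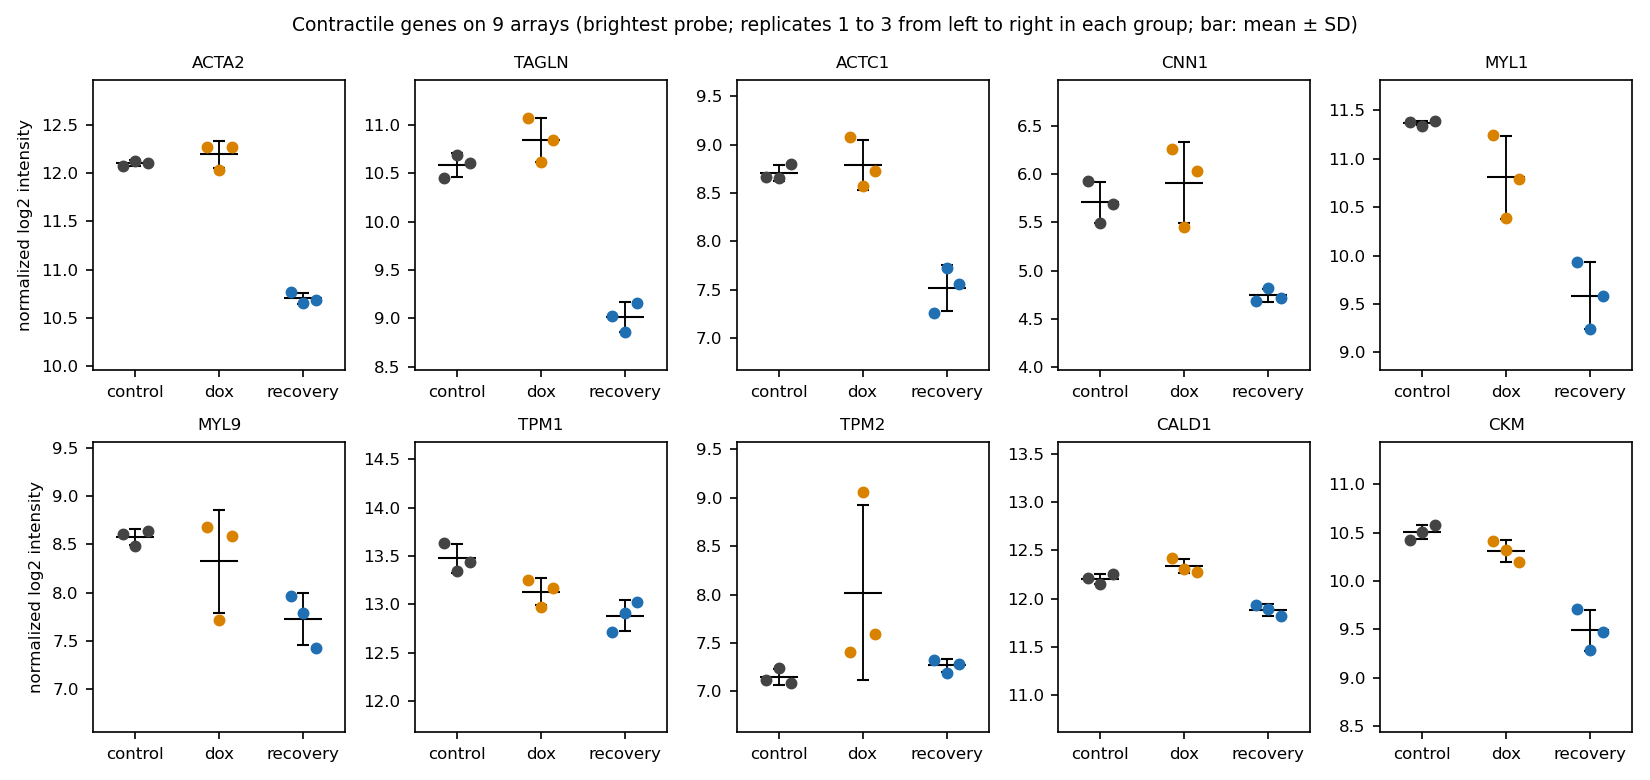
Normalized log2 intensity (vertical axes, each spanning 3 log2 units) of the 10 genes on every array, with points for arrays and bars for the mean ± SD of 3 arrays. In 9 panels the recovery points lie below all control points, as in 23.5% of all 12245 genes. The members were chosen on this contrast, so nothing is read from that count. In the TPM2 panel doxycycline replicate 2 stands alone at 9.06.

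ACTA2 encodes smooth muscle alpha-actin, the actin of smooth muscle and of contractile fibroblasts. Its probe read 12.07, 12.13 and 12.10 on the control arrays, 12.27, 12.03 and 12.27 with doxycycline, and 10.77, 10.65 and 10.69 in recovery. The first 2 groups overlapped and the recovery arrays lay more than 1 log2 unit below every other array. The difference between recovery and control was -1.40 on the log2 scale, a level 2.63-fold lower in intensity, and recovery was 2.81-fold lower than doxycycline.

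ACTC1 encodes cardiac alpha-actin, which is also made in developing skeletal muscle. The control arrays gave 8.66, 8.65 and 8.80, the doxycycline arrays 9.08, 8.57 and 8.73, and the recovery arrays 7.26, 7.73 and 7.56. As for ACTA2, control and doxycycline overlapped and recovery lay below both. The recovery mean was 2.28-fold below control and 2.43-fold below doxycycline. A second ACTC1 probe was detected on no array.

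Promoter sequences of these actins are shown because both carry short words known from muscle gene control. They run from 250 bases before to 50 bases after an annotated start, 5′ to 3′ along the gene, from RefSeq on GRCh38.p14. Capitals in the ACTA2 promoter (chr10:88952724-88953023, minus strand) mark an MCAT word, which is bound by TEAD factors, and capitals in the ACTC1 promoter (chr15:34795500-34795799, minus strand) mark a CArG box.
ACTA2: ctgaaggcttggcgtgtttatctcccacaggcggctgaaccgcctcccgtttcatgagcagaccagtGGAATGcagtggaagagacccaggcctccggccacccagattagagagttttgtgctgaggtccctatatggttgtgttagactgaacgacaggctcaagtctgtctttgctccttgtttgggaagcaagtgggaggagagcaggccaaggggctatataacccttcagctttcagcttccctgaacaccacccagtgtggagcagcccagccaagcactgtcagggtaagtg
ACTC1: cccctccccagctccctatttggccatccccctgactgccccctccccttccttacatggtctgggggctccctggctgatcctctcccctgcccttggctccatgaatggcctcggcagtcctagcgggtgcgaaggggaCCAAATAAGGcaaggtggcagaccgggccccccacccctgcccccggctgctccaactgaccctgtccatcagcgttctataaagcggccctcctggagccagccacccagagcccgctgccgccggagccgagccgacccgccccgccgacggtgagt

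The MCAT word, CATTCC on either strand, begins 183 bases before the ACTA2 start, and the CArG box begins 109 bases before the ACTC1 start. The promoter table used here held 16 promoters of 8 of the 10 genes, and those of TAGLN and MYL9 were not analysed here. An exact CArG box was present in 1 of these 16 promoters and in 1.29% of all 35116 promoters of this length. MCAT words were present in 5 of the 16, at ACTA2, a second ACTC1 start, MYL1 and 2 starts of CALD1, and in 14% of all promoters. The searches allowed no mismatch in either word, did not overlap in the bases they matched, and say nothing of whether a factor binds there. Words 1 base off a CArG box were not marked or counted, such as ccctatatgg and ccttgtttgg at ACTA2 and ccctatttgg at ACTC1. Absence of an exact word is therefore not absence of a CArG-like element.

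TAGLN encodes transgelin (SM22), a small actin-binding protein of smooth muscle and fibroblasts. On the control arrays its probe read 10.45, 10.69 and 10.61, with doxycycline 11.07, 10.61 and 10.85, and in recovery 9.03, 8.86 and 9.16. All recovery arrays were below all other arrays, by 2.97-fold on average against control and 3.56-fold against doxycycline. Its second probe, annotated to the same transcript, had group means of 6.68 ± 0.22 in control, 6.69 ± 0.50 in doxycycline and 5.41 ± 0.18 in recovery (SD, n = 3). Recovery was 2.41-fold lower than control on that probe, with recovery signals close to the detection limit (detection p 0.016 to 0.047). A probe to another transcript (NM_001001522) was detected on no array.

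CNN1 encodes calponin 1, which binds actin and restrains the myosin motor in smooth muscle. Its signal was low, at 5.93, 5.50 and 5.69 in control and 6.26, 5.45 and 6.03 with doxycycline, and it was detected on all 6 of these arrays. In recovery the readings were 4.69, 4.82 and 4.72, and the probe was not well above background on any of the 3 arrays. CNN1 was at least 1.36-fold lower in recovery than in control and at least 1.56-fold lower than in doxycycline, where the bound sets the lowest detected signal of each array in place of the undetected one. The measured means, 5.71 ± 0.22 in control and 4.74 ± 0.07 in recovery, differed by -0.96 (recovery minus control), but this size depended on the background treatment. It came to -4.36 in the authors' normalized values, with values below 1 set to 1 before log2.

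CALD1 encodes caldesmon, which also binds actin and myosin and is made in a long form in smooth muscle and a short form in other cells. Its brightest probe (NM_033140) gave 12.22, 12.15 and 12.25 in control, 12.42, 12.31 and 12.28 with doxycycline, and 11.93, 11.90 and 11.82 in recovery. The 3 groups did not overlap here, with doxycycline highest and recovery lowest, but recovery was only 1.25-fold below control. The other probes moved less evenly: for NM_033157 control and recovery overlapped (10.33 ± 0.05 and 10.12 ± 0.24), and for NM_033138 control read 8.86, 9.17 and 8.83 and recovery 8.94, 8.58 and 8.67. With doxycycline the NM_033138 probe read 9.03, 10.46 and 9.53, highest on replicate 2.

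TPM1 encodes alpha-tropomyosin, the coiled coil that lies along the actin filament, in many splice forms. Its brightest probe (NM_001018004) read 13.64, 13.35 and 13.44 in control, 13.25, 12.97 and 13.17 with doxycycline, and 12.71, 12.91 and 13.02 in recovery. Every doxycycline and every recovery array lay below every control array, while doxycycline and recovery overlapped. Recovery was 1.51-fold below control. The other 3 kept TPM1 probes gave recovery minus control differences of -0.43, -0.40 and -0.35 on the log2 scale, and on each of them all recovery arrays were below all control arrays.

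With doxycycline the TPM1 probes did not move together. The pair annotated to NM_001018008 read 7.97, 9.48 and 8.15, and 7.91, 9.46 and 8.23, so that replicate 2 was high and the other doxycycline arrays were below the lowest control array or close to it (control lowest 8.23 and 8.19). On the brightest probe replicate 2 was the lowest of the 3. Relative to the mean of the other doxycycline arrays, replicate 2 was 1.42 and 1.39 higher on the NM_001018008 probes, and differed by -0.24 and -0.35 on the other pair.

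TPM2 encodes beta-tropomyosin and was the member that was not lower in recovery. Its brightest probe (NM_213674) gave 7.11, 7.24 and 7.09 in control, 7.41, 9.06 and 7.59 with doxycycline, and 7.33, 7.19 and 7.29 in recovery. Control and recovery overlapped, and doxycycline lay above both, replicate 2 by far. A second probe to the same transcript read 5.97, 6.22 and 5.94 in control, 6.43, 8.23 and 6.78 with doxycycline and 6.54, 6.68 and 6.28 in recovery, so that all recovery arrays were above all control arrays on that probe. The probe to NM_003289 was detected on no array.

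**Figure D2:**
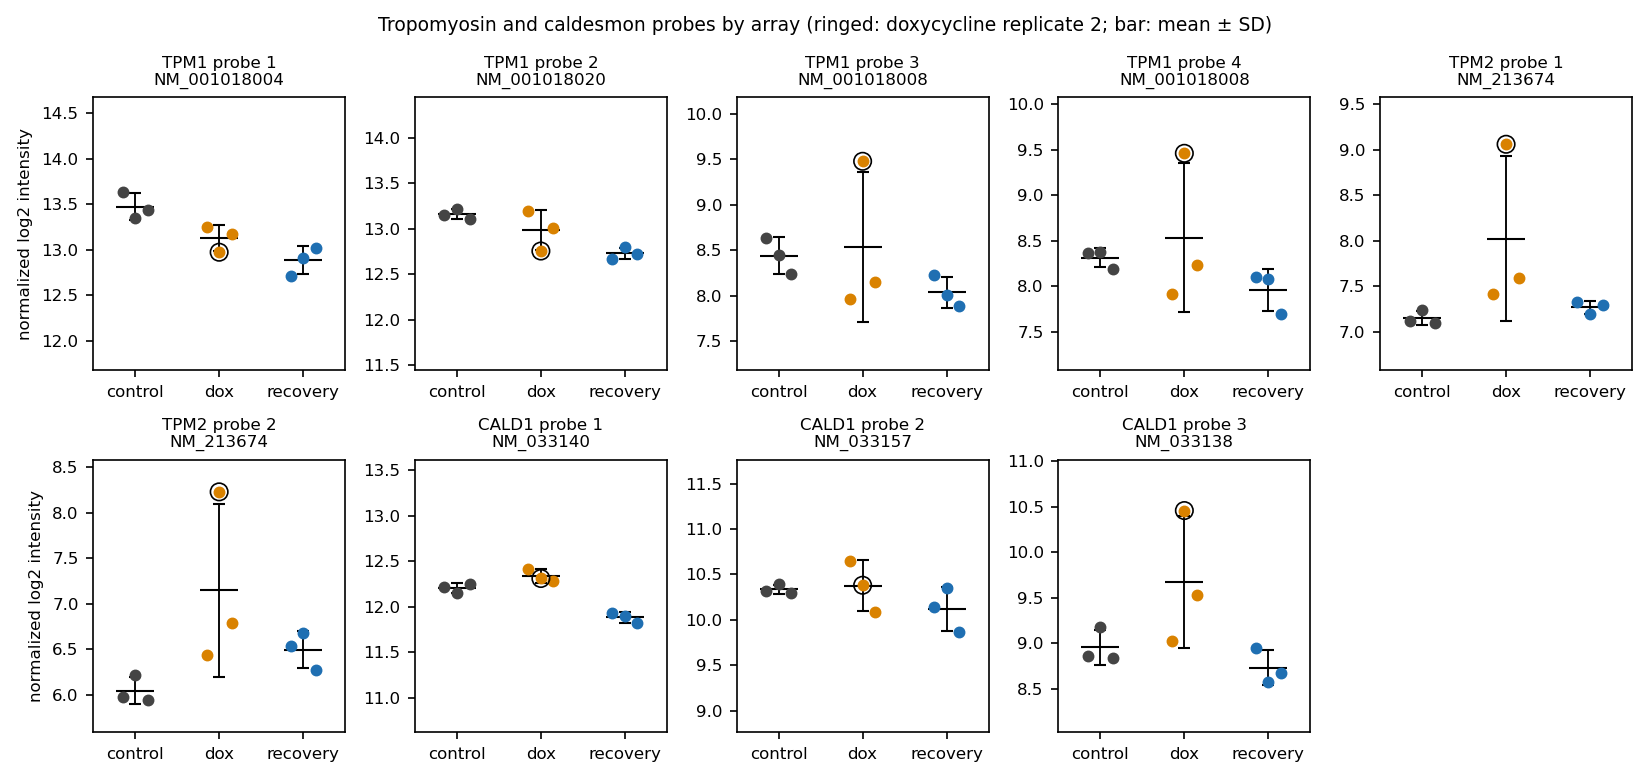
Normalized log2 intensity (vertical axes, each spanning 3 log2 units) of all 9 kept probes of TPM1, TPM2 and CALD1 by group, with points for arrays, a ring around doxycycline replicate 2 and bars for the mean ± SD of 3 arrays. The ringed array is the highest of its group on 5 probes (both NM_001018008 probes of TPM1, both TPM2 probes and the NM_033138 probe of CALD1) and reads 9.48, 9.46, 9.06, 8.23 and 10.46 there.

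MYL9 encodes a regulatory light chain of smooth muscle and non-muscle myosin, the chain whose phosphorylation starts contraction. It read 8.61, 8.48 and 8.64 in control, 8.68, 7.71 and 8.58 with doxycycline, and 7.96, 7.79 and 7.43 in recovery. Recovery lay below control throughout, by 1.80-fold on average, but overlapped doxycycline because doxycycline replicate 2 was as low as the recovery arrays. On the second MYL9 probe the means were 6.44 ± 0.16, 6.53 ± 0.25 and 5.63 ± 0.26, recovery was 1.76-fold below control, and it overlapped neither group.

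MYL1 encodes the essential light chain of fast skeletal myosin, in a long and a short form that arise from separate promoters. Both kept probes are annotated to the short form (NM_079422), and a probe to the long form (NM_079420) was detected on 1 control array only. The brightest probe read 11.38, 11.34 and 11.39 in control, 11.25, 10.39 and 10.79 with doxycycline, and 9.94, 9.24 and 9.58 in recovery. The 3 groups did not overlap and stepped down in that order, to 3.44-fold below control in recovery. The second probe gave 9.78, 9.76 and 9.73, then 9.48, 8.50 and 8.88, then 8.14, 7.81 and 8.01, with the same order and a 3.41-fold difference between control and recovery.

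Both annotated MYL1 promoters are shown, since both kept probes are annotated to the form from the downstream start. Whether these probes also read the other form was not tested. They lie at chr2:210315125-210315424 (upstream start) and chr2:210303566-210303865 (downstream start), both on the minus strand, in the same source and build. Capitals mark an MCAT word that begins 103 bases before the upstream start; neither word was found at the downstream start.
MYL1 upstream: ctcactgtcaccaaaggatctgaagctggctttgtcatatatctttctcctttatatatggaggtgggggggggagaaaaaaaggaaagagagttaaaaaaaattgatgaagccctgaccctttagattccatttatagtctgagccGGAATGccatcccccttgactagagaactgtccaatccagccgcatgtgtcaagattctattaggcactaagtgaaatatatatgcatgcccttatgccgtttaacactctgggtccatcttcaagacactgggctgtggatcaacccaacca
MYL1 downstream: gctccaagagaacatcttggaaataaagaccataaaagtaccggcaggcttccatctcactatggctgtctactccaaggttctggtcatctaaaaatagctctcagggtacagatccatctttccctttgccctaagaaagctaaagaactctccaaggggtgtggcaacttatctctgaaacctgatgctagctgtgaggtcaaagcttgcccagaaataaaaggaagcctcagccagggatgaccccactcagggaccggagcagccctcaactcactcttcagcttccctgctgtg

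CKM encodes the muscle creatine kinase, which regenerates ATP from phosphocreatine beside the contractile filaments. The readings were 10.43, 10.51 and 10.58 in control, 10.41, 10.32 and 10.19 with doxycycline, and 9.71, 9.29 and 9.47 in recovery. The groups did not overlap, although the lowest control and the highest doxycycline array nearly met, and recovery was 2.02-fold below control and 1.77-fold below doxycycline.

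Over the 10 genes, all recovery arrays were below all control arrays for 9, all but TPM2, where 23.5% of all 12245 genes had that pattern. The same held against doxycycline for 8, all but MYL9 and TPM1, beside 18.1% of all genes. The median difference was -0.99 against each group (-0.93 against control and -0.79 against doxycycline with CNN1 at its bound), beside -0.01 for all genes in both contrasts. The members were chosen for this, so nothing is read from these shares, and both contrasts share the recovery arrays.

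**Figure D3:**
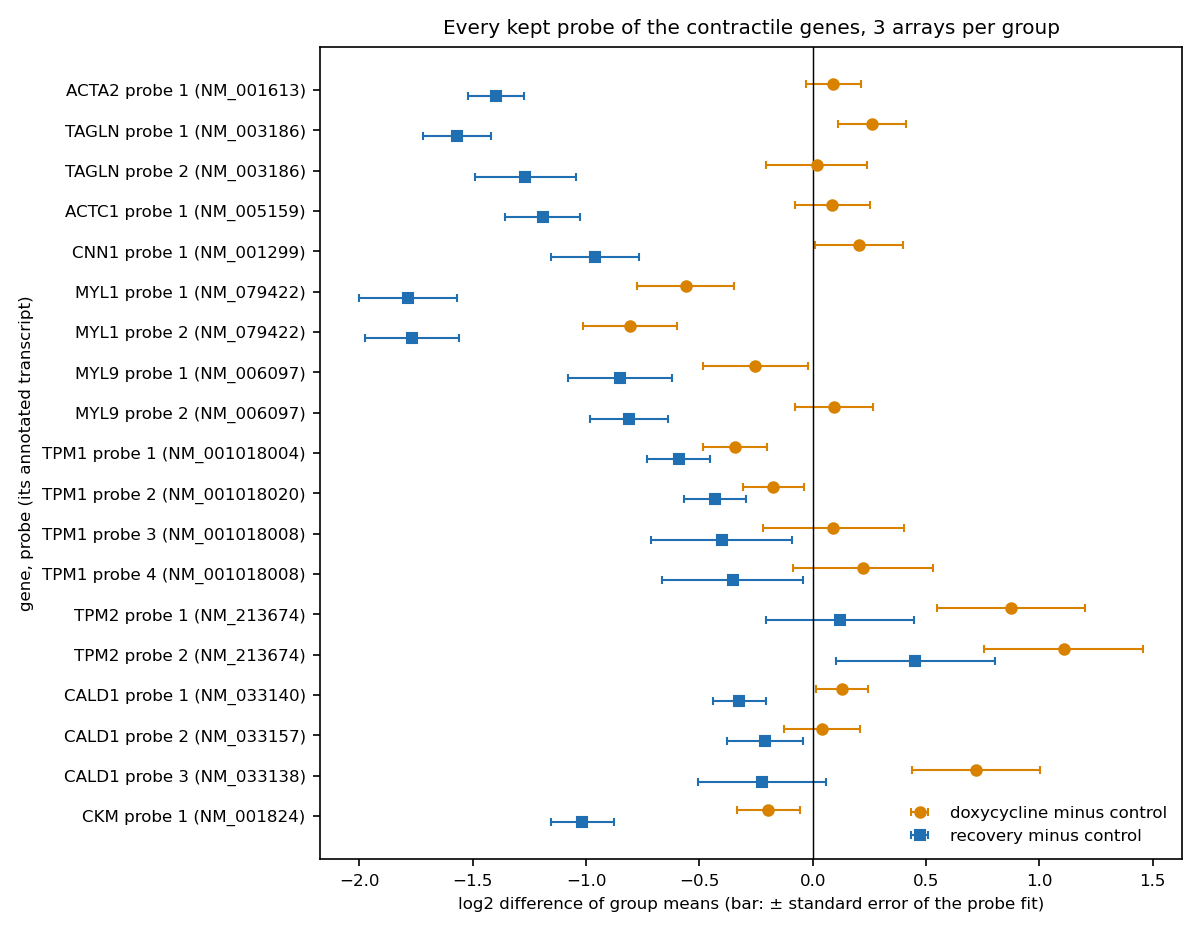
Log2 difference of group means for the 19 kept probes, recovery minus control in blue and doxycycline minus control in orange, with bars of ± 1 standard error of the fit over all kept probes (3 arrays per group). Recovery values run from -1.78 (MYL1) to 0.45 (TPM2), while doxycycline values lie on both sides of 0, from -0.81 (MYL1) to 1.11 (TPM2).

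Doxycycline against control asked whether these genes moved during the 3 days of doxycycline. The antisense RNA itself was not analysed here. No group analysed here had doxycycline without the antisense construct, so effects of the drug and of the antisense RNA cannot be told apart. None of the 10 was called (limma, Benjamini-Hochberg adjusted p under 0.05), where 1.71% of all genes were called higher and 0.359% lower. Of the 19 kept probes, 0 were called, beside 1.41% of all kept probes. The unadjusted p was under 0.05 for 6 of these probes (2 each of MYL1 and TPM2, and 1 each of TPM1 and CALD1), beside 22.4% of all kept probes. At the gene level 3 had an unadjusted p under 0.05, MYL1, TPM1 and TPM2, beside 23.6% of all genes. This contrast shares the control arrays with the one that chose the members.

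MYL1 differed by -0.56 ± 0.21 (doxycycline minus control, ± standard error; 95% interval of the difference -1.03 to -0.10, limma adjusted p = 0.153), with all 3 doxycycline arrays below all 3 controls. On its second probe the difference was -0.81 ± 0.21 (limma adjusted p = 0.0723 over all kept probes). TPM1 differed by -0.34 ± 0.13 (limma adjusted p = 0.16), and CKM by -0.20 ± 0.13 (limma adjusted p = 0.373). In these 3 genes every doxycycline array was below every control array, a pattern seen in 11.1% of all genes.

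TPM2 was higher by 0.87 ± 0.33 (95% interval 0.16 to 1.59, limma adjusted p = 0.15), and by 0.35 without doxycycline replicate 2. CALD1 differed by 0.13 ± 0.11 (limma adjusted p = 0.475). All doxycycline arrays were above all controls in these 2 genes, as in 15.3% of all genes.

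Between these, ACTA2 (0.09 ± 0.11, limma adjusted p = 0.638), TAGLN (0.26 ± 0.14, limma adjusted p = 0.284), ACTC1 (0.09 ± 0.16, limma adjusted p = 0.756), CNN1 (0.20 ± 0.19, limma adjusted p = 0.527) and MYL9 (-0.25 ± 0.23, limma adjusted p = 0.514) overlapped between the groups. The 95% intervals ran from -0.16 to 0.34 for ACTA2 and from -0.05 to 0.57 for TAGLN. Without doxycycline replicate 1, MYL1 (-0.78, limma adjusted p = 0.0194) and TPM2 (1.18, limma adjusted p = 0.0234) passed the threshold, in a fit that called 21.3% of all genes. Leaving out any other single array gave 0 calls among the 10.

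The spread within the doxycycline group was wide for these genes, with a median SD of 0.24 against 0.08 in control and 0.15 in recovery, beside 0.22, 0.12 and 0.12 for all genes. Doxycycline replicate 2 was below the mean of the other doxycycline arrays for 8 of the 10 genes, beside 6587 of all 12245 genes. The median difference was -0.28, beside -0.04 for all genes. At the brightest probes the exceptions were TPM2, higher there by 1.56, and CKM, higher by 0.02. Some other kept probes of TPM1 and CALD1 were also higher on that array, as described above. Without that array the median difference between doxycycline and control over the 10 genes was 0.16, against 0.09 with it.

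Other genes of contraction and of the actin cytoskeleton were read from 11 lists of 163 genes. The lists were drawn up with earlier results of these data known, so the shares of called genes below are a description. Of these, 153 had a probe and 91 a kept probe, and 10 were not analysed here. Doxycycline against control called 1 of the 91: ACTN4, a non-muscle alpha-actinin that crosslinks actin, rose by 0.58 ± 0.12 (limma adjusted p = 0.0332), and this call was lost in 7 of the 9 fits that left out 1 array. Recovery against control called 13 lower (14.3%, beside 9.06% of all genes) and 3 higher (3.3%, beside 10.2%), with a median of -0.07 over the 91 and -0.01 over all genes. Recovery against doxycycline called 17 lower (18.7%, beside 9.69%) and 2 higher (2.2%, beside 8.71%), with a median of -0.09. Under median scaling of the arrays, 34.9% of all genes called in this last contrast were higher, against 47.3% here. When 1 array was left out, the called genes of recovery against control numbered 8 at the lowest (without control replicate 2) and 25 at the highest (without doxycycline replicate 2). Those of recovery against doxycycline ranged from 9 (without recovery replicate 2) to 24 (without doxycycline replicate 1). In every one of those fits 7 and 9 genes were called, in the same order.

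**Figure D4:**
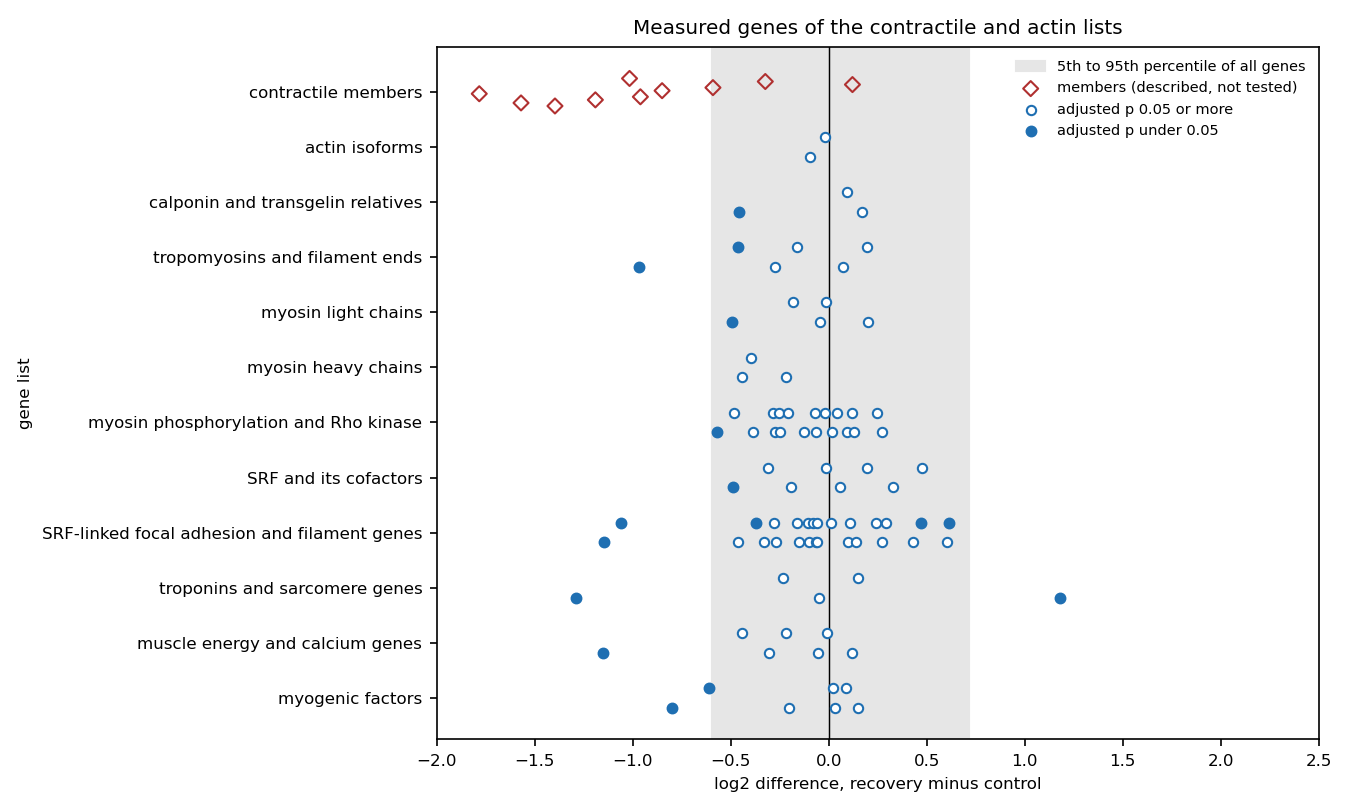
Log2 difference between recovery and control (horizontal axis) for the 10 members, drawn as open diamonds and not tested, and for the 91 measured genes of 11 lists, filled where limma adjusted p was under 0.05. The grey band holds the 5th to 95th percentile of all 12245 genes, -0.60 to 0.72, and 7 of the 10 members lie to its left. CNN1 is counted there at its measured -0.96, and at its bound of 1.36-fold lower it would lie inside the band.

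The widely expressed actins ACTB and ACTG1 were not called in any contrast, with -0.10 ± 0.12 and -0.02 ± 0.13 for recovery against control at their brightest probes (limma adjusted p = 0.636 and 0.939). Their other kept probes reached -0.46 and -0.64 in that contrast. ACTA1, ACTG2 and ACTBL2 were not kept. Among relatives of calponin and transgelin, CNN2 fell by 0.46 (limma adjusted p = 0.0404), a call lost in 6 of 9 fits that left out 1 array, while CNN3 (0.09) and TAGLN2 (0.17) did not pass.

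Of the filament-end and tropomyosin genes, TMOD2, a tropomodulin that caps the slow-growing end of actin filaments, fell by 0.97 ± 0.11 against control and 0.94 ± 0.11 against doxycycline (limma adjusted p = 0.000119 and 0.000236). Its mean levels were 8.05 ± 0.07 in control, 8.02 ± 0.12 with doxycycline and 7.08 ± 0.06 in recovery (SD, n = 3). CAPZB, a capping protein subunit, fell by 0.46 against control (limma adjusted p = 0.0347), a call lost in 7 of 9 fits that left out 1 array. TPM4 (-0.27) and TMOD3 (0.19) did not pass against control.

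Among 5 measured myosin light chains, MYL6B, an essential light chain, fell by 0.49 against control (limma adjusted p = 0.0256). The MYL6B call was lost in 5 of 9 fits that left out 1 array. MYL6, MYL12B and MYL3 differed by -0.18, -0.05 and 0.20 and were not called. All 3 measured myosin heavy chains were lower in recovery than in doxycycline: MYH9 and MYH10, the non-muscle chains IIA and IIB, by 0.49 ± 0.13 and 0.70 ± 0.17 (limma adjusted p = 0.0206 and 0.0133), and the embryonic skeletal chain MYH3 by at least 1.03-fold (limma adjusted p = 0.0388), near background. Against control none of the 3 passed (-0.22, -0.44 and -0.40). The MYH3 call was lost in 6 of 9 fits that left out 1 array. MYH9 and MYH10 lost the call without recovery replicate 2, and MYH9 also without recovery replicate 1 or doxycycline replicate 3.

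Of 19 measured genes that set myosin phosphorylation and actin assembly, 1 was called in recovery against control and 4 against doxycycline. The formins DIAPH3 and DIAPH1, which elongate actin filaments, fell by 0.90 ± 0.15 and 0.84 ± 0.16 against doxycycline (limma adjusted p = 0.00196 and 0.00486), and DIAPH3 also fell by 0.57 ± 0.15 against control (limma adjusted p = 0.019), a call lost in 4 of 9 fits that left out 1 array. MYLK, the light chain kinase, fell by 0.59 against doxycycline (limma adjusted p = 0.0201), with arrays of 11.96 to 12.28 in doxycycline, 11.41 to 11.57 in recovery and 11.67 to 12.20 in control. PPP1R12A, the targeting subunit of the phosphatase that opposes it, rose by 0.38 (limma adjusted p = 0.031), a call lost in 6 of 9 fits that left out 1 array. The MYLK call was lost without recovery replicate 1 or 2.

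SRF itself was not called, at -0.01 ± 0.12 for recovery against control and -0.25 ± 0.12 against doxycycline (limma adjusted p = 0.951 and 0.177). Its cofactor MRTFB fell by 0.49 ± 0.12 against control (limma adjusted p = 0.0172), a call lost in 3 of 9 fits that left out 1 array. MYOCD, the cofactor of smooth and cardiac muscle, lay near background and was not called. ELK4, a ternary complex factor that binds beside SRF, rose by 0.57 against doxycycline (limma adjusted p = 0.0355) at its brightest probe. Its 4 kept probes differed in sign, and the call was lost in 6 of 9 fits that left out 1 array.

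Among 26 measured genes of adhesions and filaments linked to SRF, LPP, a zyxin relative at focal adhesions, fell by 1.15 ± 0.16 against control and fell by 1.58 ± 0.16 against doxycycline (limma adjusted p = 0.000516 and 7.66e-05). Its arrays spanned 11.62 to 11.93 in control, 11.94 to 12.56 with doxycycline and 10.50 to 10.77 in recovery. Outside the rule for named genes, and picked after their values were seen because few genes rose, SYNPO2 (an actin-bundling protein, at least 1.33-fold higher, limma adjusted p = 0.0138) and TUFT1 (by 0.47, limma adjusted p = 0.0125) were higher in recovery than in control. Each call was lost without control replicate 2 or recovery replicate 2. THBS1, the matrix protein thrombospondin 1, fell by 1.06 ± 0.23 and 1.22 ± 0.23 (limma adjusted p = 0.00851 and 0.00471). SMTN, the smooth muscle protein smoothelin, fell by 0.64 against doxycycline (limma adjusted p = 0.00286) and by 0.37 against control (limma adjusted p = 0.0382), where its second probe gave 0.09 and the call was lost in 7 of 9 fits that left out 1 array. ACTN4 fell by 0.68 ± 0.12 against doxycycline (limma adjusted p = 0.00286) and was not called against control (-0.10).

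The sarcomere list was mostly dark, with 5 of 24 genes with a probe kept. MYOM1, the M-band protein myomesin, had mean levels of 9.65 ± 0.13 in control, 9.74 ± 0.22 with doxycycline and 8.36 ± 0.32 in recovery, and fell by 1.29 ± 0.17 and 1.38 ± 0.17 (limma adjusted p = 0.000312 and 0.000288). SMPX, a small muscle protein, went the other way: it was detected on 0 control, 2 doxycycline and 3 recovery arrays and was at least 1.60-fold higher in recovery than in control (limma adjusted p = 0.00191). TNNC1 (-0.23) and MYOZ1 (-0.05) were not called.

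Of 7 measured genes of muscle energy and calcium, ATP2A1, the fast-muscle calcium pump SERCA1, was detected on all control and doxycycline arrays and on 0 recovery arrays. It was at least 1.78-fold lower than control and at least 2.23-fold lower than doxycycline (limma adjusted p = 0.00391 and 0.00112). CKB, the brain creatine kinase, MB, myoglobin, and ATP2A2 differed from control by -0.31, -0.44 and -0.22 and were not called. Among myogenic factors, MEF2C and MEF2D fell by 0.80 ± 0.13 and 0.61 ± 0.14 against control (limma adjusted p = 0.00106 and 0.0115). MEF2A (0.03) and PAX7 (-0.20) did not pass. The MEF2D call was lost without recovery replicate 2. MEF2C stepped down through the groups, with 11.35 to 11.45 in control, 10.80 to 11.20 with doxycycline and 10.56 to 10.64 in recovery.

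The genes whose pattern was most like that of ACTA2 over the 9 arrays were DCTN1, a dynactin subunit (Pearson r = 0.997), TOP2A, DNA topoisomerase II alpha (0.994), SLC25A15, the mitochondrial ornithine carrier (0.992), WDR4 (0.990) and GNL3L (0.990). For TAGLN they were WTIP, a LIM-domain protein (0.996), DCTN1 (0.991), UHMK1 (0.987), CCNJL (0.982) and the mitotic kinesin KIF4A (0.982). DCTN1 stood in both lists. All of these genes were lower in recovery than in control, by 0.46 (KIF4A) to 0.90 (WTIP), which is less than for ACTA2 or TAGLN. The 9 arrays fall into 3 groups, so r reflects the group means as well as single arrays, and these values are a description.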

How the data were processed

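RNA of 9 samples was hybridised to Illumina bead arrays with a single dye. The authors deposited, per the file headers, a signal intensity and a detection p-value for each of 47322 probes, and a second table of normalized intensity values on the linear scale. The sources used here do not name the software. Column codes of the signal table were matched to samples by rank identity with the deposited normalized table (rank correlation 1 against at most 0.962 for any other column).

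Signals were background corrected in limma 3.58.1 (R 4.3.3; normexp with detection p-values, offset 16), taken to log2 and quantile normalized. Kept were the 22039 probes that 3 or more arrays detected at p under 0.05, and a gene was read at its brightest kept probe (12245 genes). A single limma fit of the 3 group means (lmFit, eBayes) took in all 9 arrays (6 residual degrees of freedom, prior 5.51), and p-values were adjusted by Benjamini-Hochberg over all genes, and over all kept probes for single probes. The number of arrays limits the precision. The fit was run on simulated data with the same spread in every group. The wider spread of the doxycycline arrays was therefore not covered by it. Where no array of a group detected a probe, the fold is a bound against the lowest detected signal of each array.

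The members and gene lists were chosen with earlier results of these data known. Named from each list were up to 4 genes with the smallest F-test p over the groups, and for ACTA2 and TAGLN the 5 genes of most similar pattern. Promoters came from RefSeq (GRCh38.p14). The closing section lists the 21 alternatives. Tables and figures used Python 3.11.15, pandas 2.3.3, numpy 2.4.6 and matplotlib 3.10.9.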

Additional observations from a re-analysis of the deposited data

How the results depend on the processing

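The 21 alternatives changed the offset, background correction, normalization, filter, probe rule, prior, weights, samples or replicate block. In all of them the differences of recovery from control and from doxycycline kept their sign for the 10 contractile genes, over -1.52 to -1.35 for ACTA2 and -1.67 to -1.42 for TAGLN against control. Sizes moved most for CNN1, whose recovery signal was near background. Against control and doxycycline they came to -0.51 and -0.64 with an offset of 50. With no further background correction they were -4.28 and -4.55, and with the authors' values -4.36 and -4.63. These last 2 settings set deposited values below 1 to 1 before log2, so the size near background depends on that floor. Per array, 29.2% to 32.5% of the deposited signals were below 0. TPM2, -0.75 against doxycycline, was -0.23 without doxycycline replicate 2 and -0.35 with array weights, and its 0.12 against control became 0.29 as a mean over probes. Smaller shifts were seen for CALD1, TAGLN, TPM1 and MYL9. In doxycycline against control 2 signs turned when 1 array was left out, both uncalled: ACTC1 ranged from -0.0561 (without doxycycline replicate 1) to 0.1964 (without doxycycline replicate 2), and MYL9 from -0.4297 to 0.053 in the same order.

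Among the 10 genes, doxycycline calls rose from 0 to 1 under median scaling (TPM2, limma adjusted p = 0.0275), where 2.62% of all genes were called, and to 5 with array weights (CNN1, MYL1, TPM1, TPM2 and CKM), where 30.1% were. The lowest limma adjusted p among them ranged from 0.0109 to 0.293 over the alternatives. Leaving out 1 array gave 0 to 2, the 2 without doxycycline replicate 1, where 21.3% of all genes were called. Of their 19 probes, 1 was called with an offset of 50 (MYL1), 1 under median scaling (TPM2), 1 with a trended robust prior (MYL1), 6 with array weights (23.5% of all kept probes), and 0 to 5 when 1 array was left out (17.9% of all kept probes in the fit with 5).

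The list genes called in doxycycline against control, 1 in the report, were 0 with no background correction, the authors' values, the replicate block or only the compared groups, 2 with the trended prior and 32 with array weights, and 0 to 22 when 1 array was left out. For recovery against control the 16 became 26 with only the compared groups and 28 with array weights, with 8 to 25 when 1 array was left out. For recovery against doxycycline the 19 became 38 with array weights, with 9 to 24 when 1 array was left out.

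Over all genes, the 254 called in doxycycline against control became 136 with no background correction, 154 without the detection filter, 137 with the authors' values, 88 with only the compared groups and 3689 with array weights (58.4% of them higher, against 82.7%). Leaving out 1 array gave 75 to 2611. The 2353 of recovery against control became 3968 with only the compared groups and 4481 with array weights, and 1398 to 3818 when 1 array was left out. The 2254 of recovery against doxycycline became 1482 under median scaling, 1400 with only the compared groups and 5166 with array weights, and 1087 to 3277 when 1 array was left out. Array weights were estimated gene by gene, since the default estimate did not converge. The cause of these shifts was not tested.

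Whether replicate numbers pair the samples was not settled. Deviations from the group means correlated between -0.11 and 0.10 for same-numbered arrays and between -0.07 and 0.07 for the others. Between control and recovery the same-numbered arrays gave 0.05 to 0.10 and the others -0.07 to 0.02. Same-numbered pairs that involved doxycycline gave -0.11 to -0.02. With 3 arrays per group these deviations depend on each other, so the correlations cannot exclude a pairing. With the replicate block 0 of the 10 genes were called in doxycycline against control. Groups of 3 arrays limit what can be detected, and near background, as for CNN1, MYH3 and the dark muscle markers, the signal sets the limit.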
